A study of Mus musculus with 2 samples.

Results

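Mir126a and Mir126b are a pair of mouse miRNA genes on opposite strands of the same stretch of chromosome 2, within Egfl7. They were chosen by name from 2202 miRNA genes, with their counts, ranks, strand split and loss in a count column made without regard to strand already known. These values are therefore given as a description, with no test. Both genes were among the 358 detected, that is with at least 10 counts in each library. The tissue was whole adrenal gland from female B6CASTF1/J mice, an F1 hybrid of C57BL/6J and CAST/EiJ, at 14 days of age, and short RNAs were sequenced from it. The series holds 1 group of 2 libraries, with no treatment named and no control group. By its label, replicate 1 came from 3 females, whereas replicate 2 is labelled with a single numbered animal. A shared donor identifier is given for both. The spread between the libraries therefore need not be the spread between animals. The mice carried no transgene or deletion that the labels name.

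miRNAs are cut from hairpin precursors, and an Argonaute protein uses the seed, bases 2 to 8 of the mature strand, to find messenger RNAs to repress. miR-126 is made mainly by endothelial cells, where its hairpin lies within Egfl7, a gene for a secreted protein of the vessel wall. In mouse and zebrafish it is needed for vessel integrity and angiogenesis, and it represses Spred1 and Pik3r2, which restrain signalling downstream of vascular endothelial growth factor. The adrenal cortex and medulla are threaded by a dense bed of sinusoidal capillaries. The deposited tables hold miRNA genes only, so Egfl7 and other protein-coding markers of endothelium were not measured, and the endothelial label rests on this background.

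The sequences of the locus are shown first because both genes come from the same DNA and over the bases they share their reads are told apart by strand alone. Mir126a (ENSMUSG00000065540.1) lies at chr2:26591357-26591429 on the plus strand, and Mir126b (ENSMUSG00000105799.1) at chr2:26591363-26591420 on the minus strand, in GENCODE M21 on mm10. The hairpins below are from RefSeq on GRCm38.p6, with the mature strands listed there in capitals, 5′ to 3′.
Mir126a hairpin: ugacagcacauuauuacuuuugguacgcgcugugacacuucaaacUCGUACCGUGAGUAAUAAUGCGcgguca
Mir126b hairpin: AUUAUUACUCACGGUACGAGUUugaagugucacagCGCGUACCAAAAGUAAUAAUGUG

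All 58 bases of the Mir126b hairpin were the exact reverse complement of bases 7 to 64 of the 73-base Mir126a hairpin, counted from its 5′ end. Mir126a thus has 6 bases before and 9 bases after the stretch that both genes share. The mature strands of the locus are miR-126a-5p, miR-126a-3p, miR-126b-5p and miR-126b-3p, of which 3 are shown with the seed in capitals.
miR-126a-3p: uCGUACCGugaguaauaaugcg
miR-126b-3p: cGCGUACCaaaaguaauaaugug
miR-126b-5p: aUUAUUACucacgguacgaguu

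The arms of a hairpin pair with one another, so an antisense hairpin carries arms like those of its partner. Over the best ungapped match, miR-126a-3p and miR-126b-3p were identical at 17 of 22 bases, with miR-126b-3p starting 1 base earlier. Their seeds share the hexamer CGUACC. miR-126a-3p and miR-126b-5p lie across from each other on opposite strands over 19 bases. Each of the 3 seeds shown belonged to 1 gene only among 1398 distinct seeds in 1738 mature entries of RefSeq, as did 84.5% of seeds. No stretch of 18 bases of miR-126a-3p occurred in either orientation in any of 1003 other hairpins listed there.

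The predicted folds of both hairpins were also compared. With RNAfold, the Mir126a hairpin had a minimum free energy of -31.2 kcal/mol and 27 base pairs, of which 2 were G-U pairs, and the Mir126b hairpin had -19.3 kcal/mol and 21 base pairs. Per base this was -0.43 kcal/mol for Mir126a and -0.33 kcal/mol for Mir126b, against a median of -0.41 kcal/mol over 1005 hairpins. The full reverse complement of the Mir126a hairpin reached -34.2 kcal/mol, which is 3.00 kcal/mol more stable than the hairpin itself. Over all hairpins the reverse complement was less stable in 79.1%, and its energy was higher by a median of 4.70 kcal/mol. The strand of Mir126b thus folded at -34.2 kcal/mol over 73 bases, against -19.3 kcal/mol over its 58 annotated bases.

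Mir126a lies on the same strand as Egfl7 (ENSMUSG00000026921.18, chr2:26580014-26593120), and Mir126b on the other. In 7 protein-coding transcripts of Egfl7 and in 1 subject to nonsense-mediated decay the hairpin is intronic. It lies in intron 7 of each of these transcripts that has 10 exons. In a retained-intron transcript it lies within exon 4, and 10 further Egfl7 transcripts do not span it. A further gene on the plus strand, Gm20532, covers it with intron 3. The nearest annotated miRNA genes were Mir6996, 121.237 kb upstream, with 4 and 1 counts in replicates 1 and 2, and Gm24049, 810.422 kb downstream, with 1 count in each.

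By the reads counted, Mir126a was the leading miRNA gene of the gland on the mean of the libraries. Reads mapping to several places were not counted, so miRNAs made from several gene copies may be too low. Ranks and shares of miRNA counts, here and below, can therefore favour genes without such copies. Whether Mir126a would also lead with those reads included was not tested. Mir126a had 540202 counts in replicate 1 and 707963 counts in replicate 2, out of 3797107 and 5034257 counts on miRNA genes. These are counts on the gene's own strand, and 10720796 and 11190481 reads in all stood behind them. The share of miRNA counts was 14.2% in replicate 1 and 14.1% in replicate 2, with Wilson 95% limits of 14.19% and 14.26% around the first value and 14.03% and 14.09% around the second. This gave a mean of 14.1% ± 0.116 (SD, n = 2). As counts per 1000000 miRNA counts (CPM), the level was 141448 ± 1158 (SD, n = 2). The shares of the libraries nearly coincided. The intervals, here and below, cover counting error only. No molecular identifiers are named for these reads, so repeated copies of 1 molecule cannot be set apart. The intervals may therefore be too narrow.

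Mir126a ranked first in replicate 1, where it had 1.70 times the counts of Mirlet7g, the next gene. In replicate 2 it ranked second, at 0.655 times the counts of Mir122, the main miRNA of hepatocytes. Mir122 held 0.290% of counts in replicate 1 and 21.5% in replicate 2, so totals that include it do not mean the same in both libraries. Without Mir122 in the totals, Mir126a held 14.3% in replicate 1 and 17.9% in replicate 2, a mean of 16.1% ± 2.57 (SD, n = 2). Of all reads, mapped or not, Mir126a took 5.04% in replicate 1 and 6.33% in replicate 2. The near-equal share in miRNA totals was thus not seen with the other totals, in which replicate 2 was higher. The part of Mir122 in these shares was not tested beyond leaving it out. In whole tissue, more endothelial cells and more Mir126a RNA per cell cannot be told apart.

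Mir126b was at the low end of detection. It had 30 counts in replicate 1 and 23 in replicate 2, or 7.90 CPM (exact 95% interval 5.33 to 11.3) and 4.57 CPM (2.90 to 6.86). Its rank was 314 in replicate 1 and 322 in replicate 2. An unseen gene could still have up to 3 counts, which stand for 0.790 CPM in replicate 1 and 0.596 CPM in replicate 2, so both values lay above it. The mean was 6.23 ± 2.36 CPM (SD, n = 2). Counts are per hairpin gene and do not separate the arms. Mature strands differ little in length, with a median of 22 bases and 90% between 20 and 24 in RefSeq, so CPM was not divided by length.

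**Figure D1:**
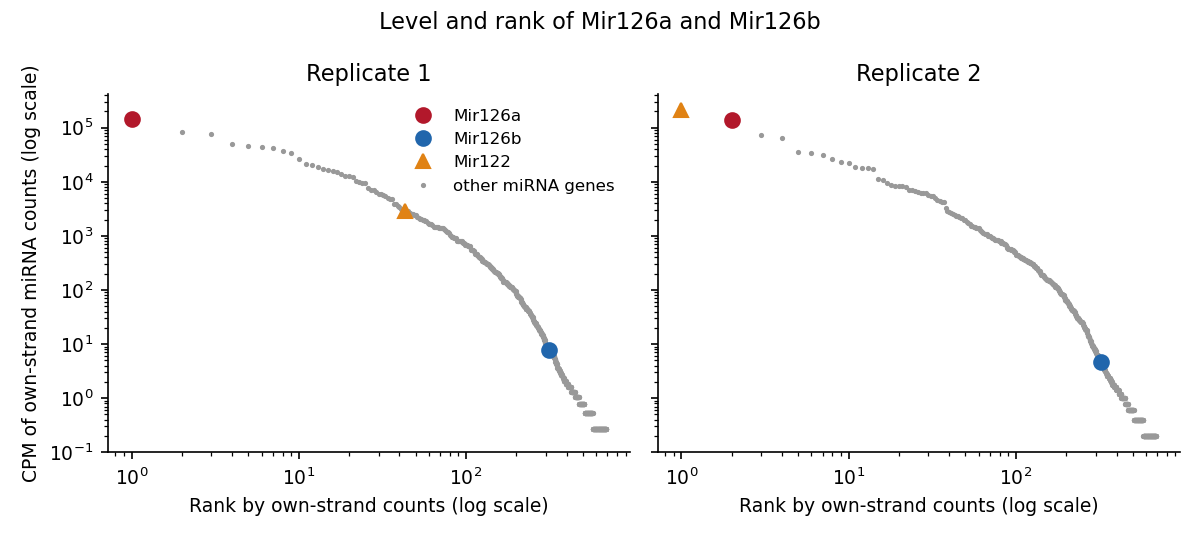
Level of each miRNA gene in CPM of own-strand counts (vertical, log scale) against its rank (horizontal, log scale), with 1 panel for each library and 1 point for each gene with a count. Mir126a stands at rank 1 in replicate 1 and rank 2 in replicate 2, Mir126b at ranks 314 and 322, and Mir122 at ranks 43 and 1.

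The 3 count columns gave a sharp strand split at the locus. On the plus strand stood the counts of Mir126a given above. The opposite-strand column of Mir126a held 30 and 23 counts in replicates 1 and 2, the same numbers as the own-strand column of Mir126b. The opposite-strand column of Mir126b held 540193 and 707948 counts, which is 9 and 15 fewer than the own-strand counts of Mir126a. Mir126a thus had 18007 times the counts of Mir126b in replicate 1 and 30781 times in replicate 2. Shares of the weaker strand are given as counts per 1000000 counts of both strands (ppm). Mir126b made up 55.5 ppm in replicate 1 (exact 95% interval 37.5 to 79.3) and 32.5 ppm in replicate 2 (20.6 to 48.7), a mean of 44.0 ± 16.3 (SD, n = 2). The intervals of the libraries overlap.

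In the unstranded column nearly all counts of both genes were missing. Mir126a had 9 counts there in replicate 1 and 15 in replicate 2, against the 540202 and 707963 on its own strand. This left 0.00167% in replicate 1 and 0.00212% in replicate 2, and the gene's share of that column was 0.000352%. Mir126b had 0 counts in the unstranded column of both libraries. In each library the count that remained was the same as the number by which the own-strand column of Mir126a exceeds the opposite-strand column of Mir126b.

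The tables also have a summary line for reads that fit more than 1 gene. It held 959702 and 1162285 reads in the unstranded column of replicates 1 and 2, and 0 and 1 in the own-strand column. The counts of Mir126a and Mir126b missing from the unstranded column came to 540223 and 707971, which is 56.3% and 60.9% of that line. In the opposite-strand column, likewise, Mir126b alone held 56.3% of all counts in replicate 1 and 60.9% in replicate 2, all of them from the Mir126a strand.

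**Figure D2:**
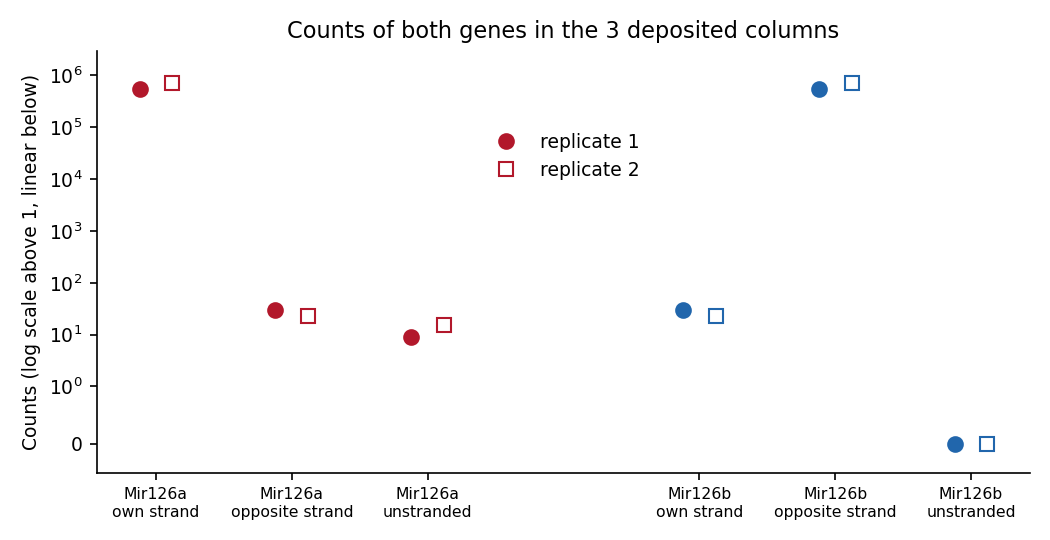
Counts of Mir126a and Mir126b in the own-strand, opposite-strand and unstranded columns (vertical, log scale above 1 and linear below), with filled circles for replicate 1 and open squares for replicate 2. The own-strand counts of Mir126a and the opposite-strand counts of Mir126b stand together at 540193 to 707963, and the unstranded counts are 9 and 15 for Mir126a and 0 for Mir126b.

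The same loss was found at every detected gene with such an antisense miRNA partner. In all, 64 genes in 32 pairs overlap in this way. Both members kept under 10% of their own-strand counts in the unstranded column, as did 28 of the 28 detected genes with a partner, against 7.82% of all 358 detected genes. Of 330 detected genes without a partner, 0 kept under 10%, the lowest kept 100%, and 309 had the same count in both columns. The highest remainder among genes with a partner was that of Mir219a-1, at 3.70% in replicate 1 and 8.82% in replicate 2, from 1 of 27 and 3 of 34 counts.

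The strand split of the Mir126a pair was set beside those of the other antisense pairs. Of 12 pairs whose stronger gene had at least 1000 counts in each library, 8 had 0 counts for the weaker gene in both libraries, 1 had a count in 1 library, and 3, among them Mir126b, had counts in both. Mir378a, on chromosome 18, had 294709 and 328406 counts in replicates 1 and 2, against 1 and 0 for its partner Gm25301. Mir30e had 35663 and 35284 counts against 0 and 0 for Mir30f. Mirlet7e, Mir191, Mir376a and Mir451a likewise had 0 counts on the partners Gm25927, Gm24083, Gm25252 and Mir451b in both libraries. At Mir378a the counts of the pair were deep enough to bound the opposite strand below that of Mir126b, with an upper 95% limit of 18.9 ppm in replicate 1 and 11.2 in replicate 2. At Mir30e the upper limit was 103 ppm in replicate 1 and 105 in replicate 2, so a share like that of Mir126b was not detectable at this depth.

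The 2 pairs of this size with a larger measured share on the weaker strand both lie on chromosome 12. Mir3544 had 82 and 53 counts opposite Mir337, or 22295 and 11291 ppm of the pair in replicates 1 and 2. Mir299b had 4 and 1 counts opposite Mir299a, or 2538 ppm (exact 95% interval 692 to 6486) and 328 ppm (8.30 to 1825). The interval of Mir299b in replicate 2, from 1 count, includes the 32.5 ppm of Mir126b, so a difference was not detectable there. The intervals of Mir3544, 17770 to 27599 ppm and 8469 to 14743 ppm, lay above those of Mir126b in both libraries. The weaker genes detected in both libraries were 4 in all, Mir126b, Mir3544, Mir3065 and Mir3074-1. Mir3074-1 lies opposite Mir24-1, a numbered gene copy from which reads mapping to several places may be missing. The strand split of that pair is therefore uncertain.

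For comparison, opposite-strand counts were taken at abundant miRNA genes with no miRNA gene annotated on the other strand. The origin of such counts was not tested. At a mean of 10000 counts or more there were 43 such genes, and 40 had 0 opposite-strand counts in both libraries, so the median was 0 ppm. Mirlet7g had 0 opposite-strand counts beside 317839 and 373549 own-strand counts in replicates 1 and 2, which allows up to 9.44 and 8.03 ppm. Mir122 had 0 beside 1080041 counts in replicate 2, which allows up to 2.78 ppm. Mirlet7i had 0 beside 187585 and 176137 counts, which allows at most 17.0 ppm in either library. The 55.5 and 32.5 ppm at the Mir126a locus lay above these limits. In replicate 1, 14 of the 40 genes at 0 were deep enough for a limit below the ppm of Mir126b, and in replicate 2, 8 of the 41 were. At the others a share like that of Mir126b was not detectable at this depth.

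A few genes stood as high as Mir126b on the opposite strand without an annotated partner. Counts in both libraries were found for 2 of the 43, or 4.65%. Mir130a had 13 and 2 opposite-strand counts in replicates 1 and 2, or 569 and 90.3 ppm, and Mirlet7b had 10 and 9, or 59.4 and 53.2 ppm. Mir98 had 2 and 0. Pooled over the 43 genes, opposite-strand counts made up 10.1 ppm in replicate 1 and 3.12 in replicate 2. Pooled over every gene without a partner, low ones included, they made up 128 and 66.4 ppm, which is more than at the Mir126a locus. Mir126b thus lay above the pooled value of the abundant genes and below that of all genes without a partner. Whether the Mir126b counts come from its own hairpin was not tested.

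**Figure D3:**
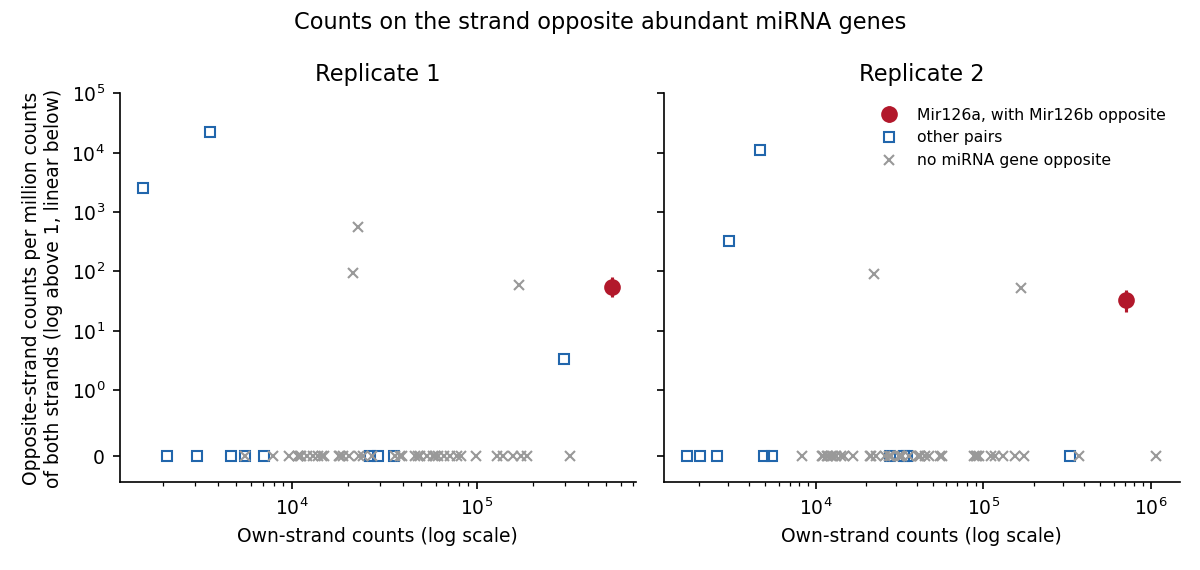
Opposite-strand counts in ppm of both strands (vertical, log scale above 1 and linear below) against own-strand counts (horizontal, log scale), for the Mir126a pair (filled circle with exact 95% interval), other antisense pairs with at least 1000 counts (squares) and abundant genes with no miRNA gene opposite (crosses). Mir126a stands at 55.5 and 32.5 ppm in replicates 1 and 2, while 40 of 43 crosses lie at 0 in both panels.

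Between the libraries, the ratio of Mir126a changed sign with the scaling. On the TMM scale, which sets the bulk of the genes equal, its log2 ratio of replicate 1 over replicate 2 was -0.41 (95% counting interval -0.42 to -0.41), and on library totals it was 0.017 (0.012 to 0.022). The median of all 358 detected genes was 0.06 on the TMM scale and 0.48 on library totals, so Mir126a lay below the median gene under both, by about the same amount. On the TMM scale 190 of the detected genes had a larger ratio in either direction, so the value of Mir126a was within the common spread. Mir126b had a log2 ratio of 0.35 (-0.47 to 1.21) on the TMM scale and 0.78 (-0.04 to 1.64) on library totals, and both intervals include 0. A 2-fold difference on the TMM scale was found for 0 of the 2 members, against 17.9% of detected genes. With 1 library on each side, these ratios compare 2 libraries and have no replicate check.

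**Figure D4:**
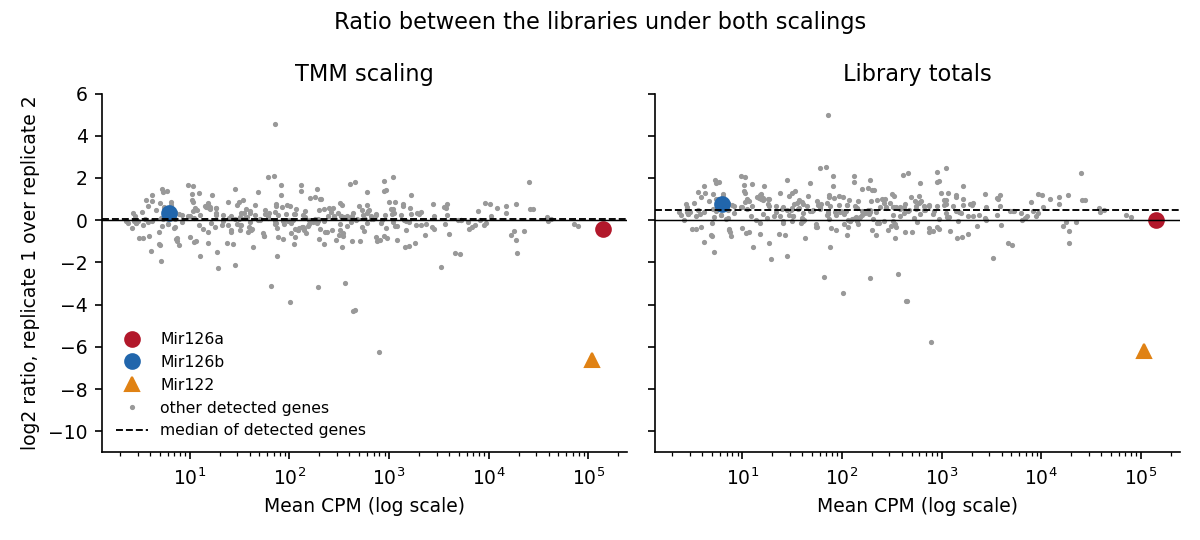
Log2 ratio of replicate 1 over replicate 2 (vertical) against mean CPM (horizontal, log scale) for the detected genes, on the TMM scale and on library totals. The dashed median lies at 0.06 and 0.48, Mir126a at -0.41 and 0.017, Mir126b at 0.35 and 0.78, and Mir122 at -6.64 and -6.21.

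By the distance of log2(CPM + 1) over the 2 libraries, the genes most like Mir126a were Mirlet7g, Mir378a, Mirlet7i, Mirlet7b and Mir143. Mirlet7g, of the growth-restraining let-7 family, held 7.90% ± 0.672 of counts (SD, n = 2) and was 1.20 log2 units away. Mir378a, from an intron of Ppargc1b, held 7.14% ± 0.875 and was 1.41 units away. Mirlet7i, Mirlet7b and Mir143, the last a smooth muscle miRNA gene, were 2.52, 2.66 and 2.74 units away. Mir126a, at 14.1% ± 0.116, was above Mirlet7g in both libraries. Mirlet7g, at 8.37% and 7.42% in replicates 1 and 2, was above Mir378a, at 7.76% and 6.52%. The SDs are spreads between libraries and do not measure the spread of a difference between 2 genes. Mir122, with a mean of 10.9% ± 15.0, was below all of these genes in replicate 1 and above them in replicate 2. The nearest to Mir126b were Mir301b, with 28 and 23 counts in replicates 1 and 2, Mir3064, with 31 and 25, and Mir3547, with 30 and 20. Likeness over 2 libraries is a match in level and says little more.

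Other miRNA genes studied in endothelial cells were taken as a list of 35 symbols, most of which are expressed in other cell types too. Of these, Mir424 matched no annotated symbol, and 32 of the 33 others were detected besides Mir126a. Together the others held 14.8% of counts in replicate 1 and 10.6% in replicate 2, a mean of 12.7% ± 2.96 (SD, n = 2). Mir126a alone thus had 0.960 times the counts of all of them in replicate 1 and 1.32 times in replicate 2. Reads mapping to several places enter neither side of these ratios. The list includes numbered gene copies such as Mir24-1 and Mir24-2, whose counts may be too low for this reason. On the TMM scale 3 of the 32 were at least 2-fold higher in replicate 1, 2 were at least 2-fold lower and 27 lay between, with a median log2 ratio of 0.24, against 0.06 over all detected genes, of which 17.9% were past 2-fold.

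The most abundant of the list came from Hox loci and from paralogous clusters. Mir10a, encoded in the Hoxb region, had 139085 and 93846 counts in replicates 1 and 2, and Mir10b, of the Hoxd region, had 77900 and 47575. Mir23b had 59057 and 111113 counts, and its paralog Mir23a had 57590 and 91019. Mir322, of an X-linked cluster, had 98251 and 57052 counts, and Mir130a had 22839 and 22137. The log2 ratios of replicate 1 over replicate 2 were 0.54 for Mir10a, 0.69 for Mir10b and 0.76 for Mir322, against -0.93 for Mir23b and -0.68 for Mir23a. Mir126a, at -0.41, was on the side of the Mir23 genes. On library totals it was 0.017, as given above.

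Marker miRNA genes of other cell types also had unequal shares in the libraries. The smooth muscle markers Mir143 and Mir145a held 4.65% of counts in replicate 1 and 3.27% in replicate 2, and the neuroendocrine Mir375 and Mir7-1 held 3.41% and 1.78%. The erythroid markers held 0.224% and 0.0560% in replicates 1 and 2, and the leukocyte markers 0.191% and 0.0879%. Epithelial markers of the miR-200 family held 0.0113% and 0.0350%. Of 4 skeletal muscle markers, Mir1a-1 and Mir133a-1 had 0 counts in both libraries, and only 1 of the 4 was detected in both. The list held 0.00279% in replicate 1 and 0.155% in replicate 2. Of 6 neuronal markers 0 were detected. Mir1a-1 and Mir133a-1, and neuronal markers such as Mir9-2 and Mir124a-1, are numbered gene copies. A read that fits several copies is not counted for any of them, so their counts may be too low. Low or missing counts of these markers therefore do not show that the miRNAs were absent. As shares of totals that include Mir122, smooth muscle, neuroendocrine and blood cell markers were thus lower in replicate 2. Mir122, the epithelial list and the skeletal muscle list were higher there, where the share of Mir126a was 14.1%. On library totals the median detected gene was also lower in replicate 2, with a log2 ratio of 0.48. The list shares are not on the TMM scale. The part of these markers in the Mir126a values was not tested.

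The seed of miR-126a-3p is unusual among mouse miRNAs in its letters. It holds 2 CpG dinucleotides, as do the seeds of 1.09% of the mature entries. Its match, CGGTACG on the transcript strand, was found in the longest 3′ UTR of 33 of 20997 protein-coding genes of GENCODE M21, or 0.157%. That was the fewest of all 1398 seeds, whose median was 2175 genes, or 10.4%. The match to miR-126b-3p, GGTACGC, was found in 98 genes, or 0.467%, with fewer for 8 other seeds. The match to miR-126b-5p, GTAATAA, was found in 2358 genes, or 11.2%, close to the median. A match is a description of letters and not a target site.

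**Figure D5:**
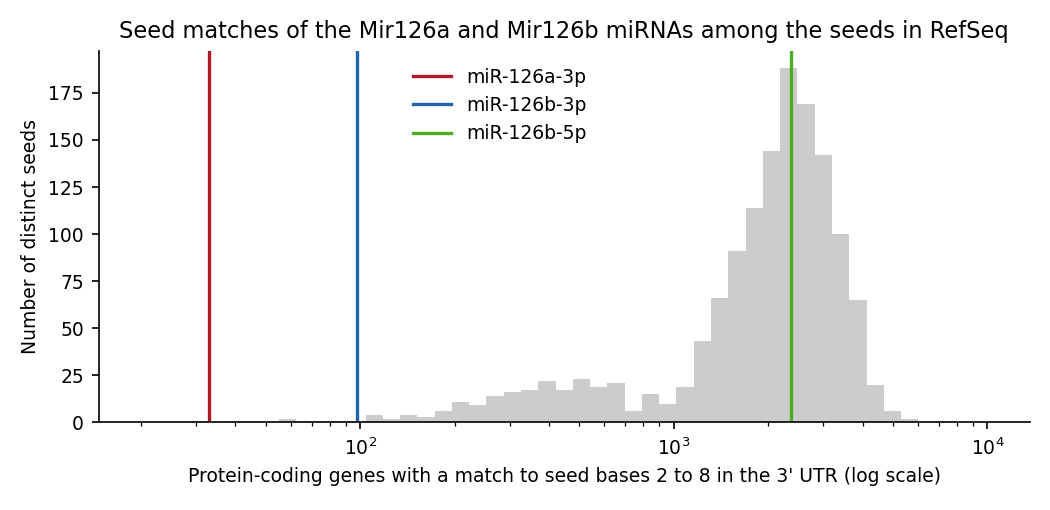
Number of protein-coding genes whose longest 3′ UTR holds a match to bases 2 to 8 of a seed (horizontal, log scale), as a histogram over the 1398 distinct seeds in RefSeq. The lines mark miR-126a-3p at 33 genes, the lowest of all seeds, miR-126b-3p at 98 and miR-126b-5p at 2358, beside a median of 2175.

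Of 7 genes described in mouse or human cells as targets of miR-126, none held CGGTACG in that stretch. A shorter match to bases 2 to 7 of the seed, GGTACG, was looked for after this had been seen. It was found in 605 genes, or 2.88%, and in 4 of the 7, namely Spred1, Crk, Irs1 and Adam9. How the 7 were first found to be targets, and the length of their 3′ UTRs, were not taken into account. The 4 of 7 is therefore no test against the 2.88%. Spred1 is an inhibitor of Ras and ERK signalling, Crk an adaptor of receptor signalling, Irs1 a substrate of the insulin receptor and Adam9 a membrane protease. Pik3r2, Vcam1 and Cxcl12 held no match to these letters in that window. The windows around the matches are shown with the match in capitals. In each the next base is an A. How often an A follows this match in the 605 genes was not counted, so this is a description only. The match starts at base 511 of the 4330-base 3′ UTR of Spred1 on chromosome 2, at base 301 of 3535 in Crk on chromosome 11, at base 132 of 4525 in Irs1 on chromosome 1, and at base 803 of 1306 in Adam9 on chromosome 8.
Spred1: ctaaatgtaaGGTACGaactatgaca
Crk: ccatattcagGGTACGaaaccggagg
Irs1: ttcagtagatGGTACGatgcatccgt
Adam9: cacactctatGGTACGaggtgtttag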

How the data were processed

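The 2 libraries are biological replicates 1 and 2 of 1 group, by the labels. For each library the authors' table holds raw, unnormalized counts in 3 columns, as deposited, with 1 line per miRNA gene after 4 summary lines. The build was mm10 and the annotation GENCODE M21, per the file headers of the texts beside the tables. Unknown, because not given in the sources used here, remain the aligner, the counter, trimming and the meaning of each column. By its values, the strand column with more counts on miRNA genes, column 3, was read as the gene's own strand, and column 2 as unstranded. Reads mapping to several places, 28.0% and 25.0% of all, were set aside by the authors' counting and enter no value. All 2202 identifiers matched GENCODE M21.

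CPM and shares were computed over own-strand counts of all miRNA genes. Ratios on the log2 scale have replicate 1 on top. They use TMM factors of 1.16 and 0.862 over detected genes and a prior count of 0.5. The ratio step was run on simulated counts that had counting error only. Errors were taken there after removal of the median shift of unchanged genes, so the scale itself was not checked. Intervals are Wilson or exact 95% intervals. Sequences are from RefSeq (GRCm38.p6), and 3′ UTRs from GENCODE M21 transcripts, the longest of each gene. Named genes are both members, Mir122, the 5 and 3 genes nearest in level, 6 other antisense pairs, 6 endothelial list members, and the 3 most abundant and 3 highest opposite-strand genes without a partner. Further pairs and markers, the target list and the 6-base search were chosen after seeing values. Members and lists were chosen with earlier results of these data known. No test between conditions was possible. Folding used ViennaRNA 2.7.2. Scaling used edgeR 4.0.16 and DESeq2 1.42.0 in R 4.3.3. Other steps ran in Python 3.11.15 with pandas 2.3.3, numpy 2.4.6, scipy 1.17.1 and matplotlib 3.10.9.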

Additional observations from a re-analysis of the deposited data

How the results depend on the processing

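The mean share of Mir126a, 14.1%, was 0.000352% in the unstranded column, 16.1% with totals without Mir122, 5.68% of all reads and 14.3% without numbered gene copies. Leaving those copies out does not restore the reads that map to several places. The rank of Mir126a was 341 in the unstranded column, and 1 to 2 with either library left out. The log2 ratio of Mir126a between replicate 1 and replicate 2, -0.41, turned to 0.017 on library totals. The median of detected genes moved there to 0.48, against 0.06. The ratio was -0.47 with DESeq2 size factors, -0.33 with totals without Mir122, -0.44 with no count minimum and -0.40 with a minimum of 100 counts. Of 40 alternative values, 29 moved by less than the spread between libraries, the counting interval or 1.5 times. These include every value run for the ratio of Mir126b, for its share of the pair, and for the percent of Mir126a left in the unstranded column. The log2 ratio of Mir126b went from 0.35 on the TMM scale to 0.78 on library totals. Its counting interval, -0.47 to 1.21, is wide enough to hold such a shift, so this does not show that the ratio is stable. Leaving out 1 of 2 libraries always shifts their mean by less than the spread between them. For the percent left, no other alternative was run. For the share of the pair, the only other alternative held the same 30 and 23 counts. Neither was thus a check of stability. The count of genes with a partner under 10% left was 28, with 35 at a minimum of 1 count and 22 at a minimum of 100. No paired analysis was possible because there is 1 group only. Depth limits Mir126b, at 30 and 23 counts.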
